A study of Homo sapiens with 5 samples.

Results

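The genes described here are the protein-coding genes of the long arm of chromosome 8 (8q) that were measured in 2 human lung adenocarcinoma cell lines and in mixtures of their RNA. They were chosen from the GENCODE v44 annotation of GRCh38 as genes whose start lies beyond 45.2 Mb and that had at least 10 reads in at least 2 of the 5 libraries. MYC, ESRP1, GRHL2, SQLE, PYCR3, CYC1 and MCM4 were left out by name, as were genes whose names start with RPL, RPS, MRP, NDUF, COX, UQCR, EIF, EEF, DNAJ, COL or ZNF. Of 418 annotated genes, 413 had a transcript in the tables, 37 of these were left out by name, and 236 of the remaining 376 had enough reads. They were 236 of the 13492 genes of any kind that reached the same number of reads. The other 140 genes fell short of it, 64 of them with 0 reads in every library. Read number was thus the measured value that chose the genes. Of the 236, 196 had at least 10 reads in every library. A gene high in 1 line and nearly absent from the other could enter through the line where it was high, so counts over the 236 are descriptions. At the edge of the choice, the second-highest library of FOXH1, GSDMC, MTBP and PSCA held 10 reads, and that of ERICH5, EYA1, PKIA and SYBU, which stayed outside, held 9.

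NCI-H1975 and HCC827 are established lines grown from lung adenocarcinomas, and both are widely used as models of EGFR-mutant disease. Per the labels, poly(A) RNA of NCI-H1975 with sequin spike-ins of mix A was combined with RNA of HCC827 with sequins of mix B, and HCC827 made up 0, 25, 50, 75 or 100% of the mass. Each mixture gave 1 library, which is called by its ratio here (100:0 is pure NCI-H1975 and 0:100 pure HCC827), and was read as long cDNA molecules on a nanopore flow cell after PCR. All libraries drew on 1 RNA preparation per line, so the p-values below measure scatter about the mixing trend and not differences between cultures. The libraries held 2932250 to 4058751 reads. Sequin reads numbered 5475, 4678, 2830, 1269 and 0 from the 100:0 to the 0:100 library. The 0 goes against the mix B of that label, and since the mixed libraries drew on the same HCC827 RNA and their sequin reads went down with the NCI-H1975 share, leaving out the 0:100 library, as is done for leading counts, does not remove the question from them. All 6 epithelial markers examined (EPCAM, CDH1, KRT7, KRT8, KRT18 and KRT19) had at least 317 reads in every library. The 4 leukocyte and 3 endothelial markers had at most 16 and 3 reads in any library, with PTPRC and CD3E at 0 in all of them. Of the 4 fibroblast markers, DCN was at 0 throughout, whereas their summed level went from 189 CPM in the 100:0 library to 7.21 CPM in the 0:100 library, nearly all of it COL1A1 and COL1A2. CPM is a gene's reads relative to the scaled size of its library. The summed epithelial level went the other way, from 5691 to 16122 CPM, nearly all of the gain in KRT7, KRT8, KRT18 and KRT19. EPCAM had 384 CPM in the 100:0 and 379 CPM in the 0:100 library, and CDH1 95.3 and 148 CPM. The summed level of NKX2-1, NAPSA and SFTPB, of the lung lineage, went from 44.5 to 379 CPM. The part of these markers in the results was not tested.

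The long arm of chromosome 8 is among the chromosome arms most often altered in carcinomas. Its genes share no pathway. They include the DNA repair kinase gene PRKDC, the cohesin gene RAD21 and the ubiquitin ligase adaptor ELOC. Also among them are metabolic enzymes such as DECR1 and PDP1, surface proteins of the LY6 family, and the heat shock regulator HSF1. Genes that are neighbours on a chromosome share chromatin surroundings and can share regulatory elements, and an account in order of position shows which neighbours moved alike.

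For each gene its level in each library is given as CPM after scaling by the TMM method, which centres most genes at no change, and then its slope. The slope is the fitted change in log2 expression from 0 to 100% HCC827 over the 5 libraries, so a positive slope means a higher level in HCC827. It was tested with edgeR's quasi-likelihood test, with p-values adjusted over all 13492 genes, and a gene is said to have risen or fallen only where the adjusted p was under 0.05. Of the 236 genes, 76 rose and 70 fell along the series, 32.2% and 29.7% of them. Over all genes tested, 23.5% rose and 22.3% fell, 45.7% in either direction. Among protein-coding genes alone the shares were 24.1% and 22.9%, and 47.0% in either direction. On 8q 61.9% passed, and 62.2% of the 196 genes with at least 10 reads in every library. In a fit confined to genes with at least 10 reads in every library, 129 of the 196 passed, against 48.7% of all genes in it. The median slope on 8q was 0.016 against -0.035 over all genes, while the median size of a slope without its sign was 0.98 against 0.66. The medians lay close together, whereas the typical slope of an 8q gene, in either direction, was larger. Their median read number was 376 against 402 for protein-coding genes in general. On the short arm of the same chromosome, of 144 protein-coding genes 28 rose and 25 fell, 36.8% in either direction, with a median slope size of 0.61. On the short arm of chromosome 7 before 50 Mb 26 of 182 rose and 83 fell, 59.9% in either direction, so a share near that of 8q also occurred on another arm. No test was made between these groups of genes.

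Without the 0:100 library 60 genes rose and 50 fell, and 30.4% of all genes passed. With library totals in place of TMM, the median slope of all genes moved from -0.035 to -0.44, and of the 148 8q genes that passed, 37.2% rose, against 52.1% of the 146 under TMM scaling. With totals 51.0% of all genes passed. LYN, MAL2, PLEC and C8orf33, described below as not passing, passed as falling in that fit, where their slopes were lowered with those of all genes. All directions given for genes are those under TMM scaling.

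The direction differed between stretches of the arm. From SPIDR to SNX16, the first 34.6 Mb of the measured arm (8:47260878 to 81842866), 24 of 68 genes rose and 18 fell, in alternating groups, with a median slope of 0.24. From LRRCC1 to TRIB1 (8:85107215 to 125438403) 47 of 91 genes fell and 8 rose, with a median slope of -0.90. From LRATD2 to C8orf33 (8:126552443 to 145066685) 44 of 77 genes rose and 5 fell, with a median of 0.91. The bounds of these 3 stretches were chosen after the values were seen, so they carry no test. Without the 0:100 library the middle stretch had 33 genes that fell and 7 that rose, and the distal one 31 that rose and 5 that fell. Without the 100:0 library the middle stretch had 44 that fell and 5 that rose.

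The summed levels of the middle and distal stretches showed the same directions. Series of 5 values are given here and below in order of rising HCC827 share, from the 100:0 library to the 0:100 library. The genes of the middle stretch summed to 6772, 6431, 6046, 5459 and 4922 CPM. Those of the distal stretch summed to 2242, 2607, 2834, 3180 and 3787 CPM, and those of the proximal stretch to 3183, 3826, 4259, 4605 and 5085 CPM. Each of the 3 sums ran in order over all 5 libraries. In the proximal stretch, where 24 genes rose and 18 fell, abundant genes weighed heavily in the sum. There ASPH went from 270 to 988 CPM and ELOC from 238 to 738 CPM between the pure libraries. As shares of all reads, without TMM scaling, the middle stretch went from 0.768% in the 100:0 library to 0.419% in the 0:100 library, the proximal stretch from 0.361% to 0.433% and the distal stretch from 0.254% to 0.323%. All 236 genes together went from 1.38% to 1.18% of reads, but from 12197 to 13794 CPM under TMM scaling, so the direction of their total depended on the scaling. Genes of the distal stretch had shorter transcripts, with a median read-weighted length of 2428 bases against 3191 in the middle stretch. Across the 236 genes the slope had a Pearson correlation of -0.034 with log2 transcript length, and over all 13492 genes of -0.16. These genes share the same 5 libraries and the coefficients are descriptions.

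**Figure D1:**
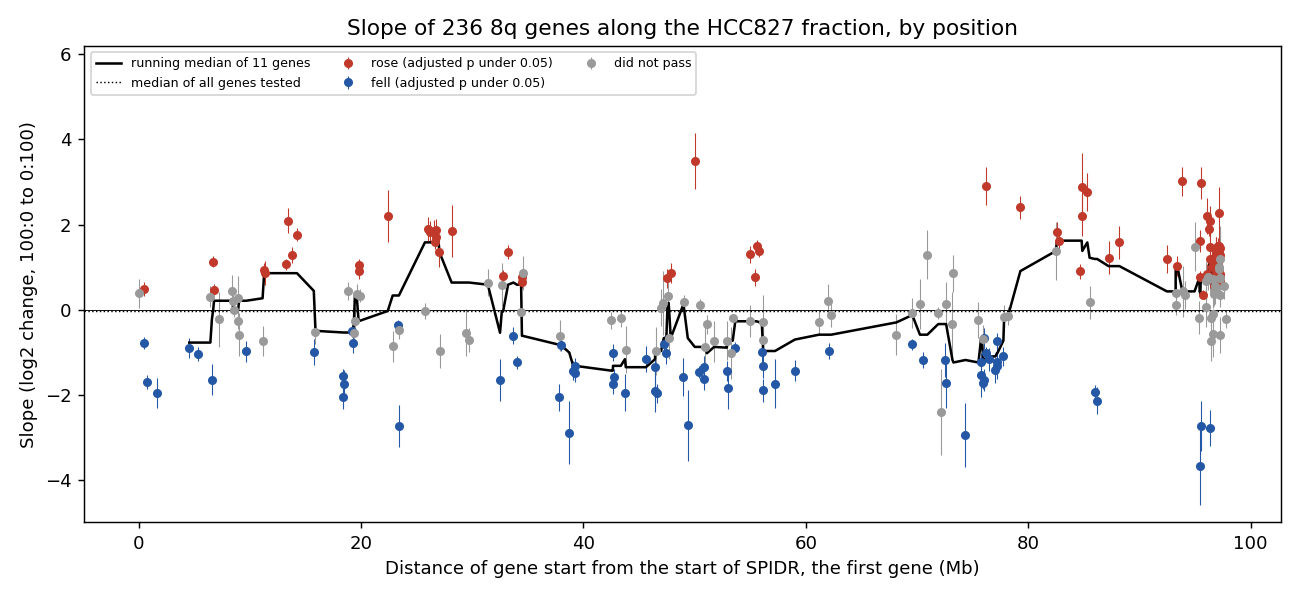
Slope of each of the 236 genes (vertical axis, log2 change from the 100:0 to the 0:100 library, bars are 1 SE) against the distance of its start from that of SPIDR in Mb. Red genes rose and blue genes fell at an adjusted p under 0.05. The black line, a running median of 11 genes, lies mostly below 0 in the middle stretch, where 47 of 91 genes fell, and above 0 in the distal stretch, where 44 of 77 rose.

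In windows of 10 Mb counted from 45 Mb, the median slope was -0.50 at 45 to 55 Mb, 0.24 at 55 to 65 Mb, 0.15 at 65 to 75 Mb and 0.61 at 75 to 85 Mb. It then turned to -1.01 at 85 to 95 Mb, -0.75 at 95 to 105 Mb, -0.30 at 105 to 115 Mb and -0.92 at 115 to 125 Mb, and back to 1.22 at 125 to 135 Mb and 0.86 at 135 to 145 Mb. The window from 85 Mb had 16 of 26 genes that fell and 1 that rose, and the window from 115 Mb had 16 of 28 and 1. By contrast, 36 of the 64 genes in the window from 135 Mb rose and 3 fell. For comparison, over all chromosomes 8 of 291 windows with at least 10 protein-coding genes had a median slope of at least 0.8 and 14 had one of -0.8 or lower, with extremes of -1.23 and 1.27. On 8q, 2 of 9 such windows lay beyond 0.8 and 2 beyond -0.8, a limit chosen after the values were seen. How often neighbours moved alike was counted as well. Where both genes of an adjacent pair passed the test, 77 of 94 pairs (81.9%) moved in the same direction on 8q, against 2076 of 2857 (72.7%) over all protein-coding genes. The Pearson correlation of adjacent slopes was 0.33 over 235 pairs on 8q and 0.26 over 11927 pairs in general. It was 0.29 and 0.23 for pairs that did not overlap. Adjacent genes share their libraries and, where they overlap, possibly reads.

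**Figure D2:**
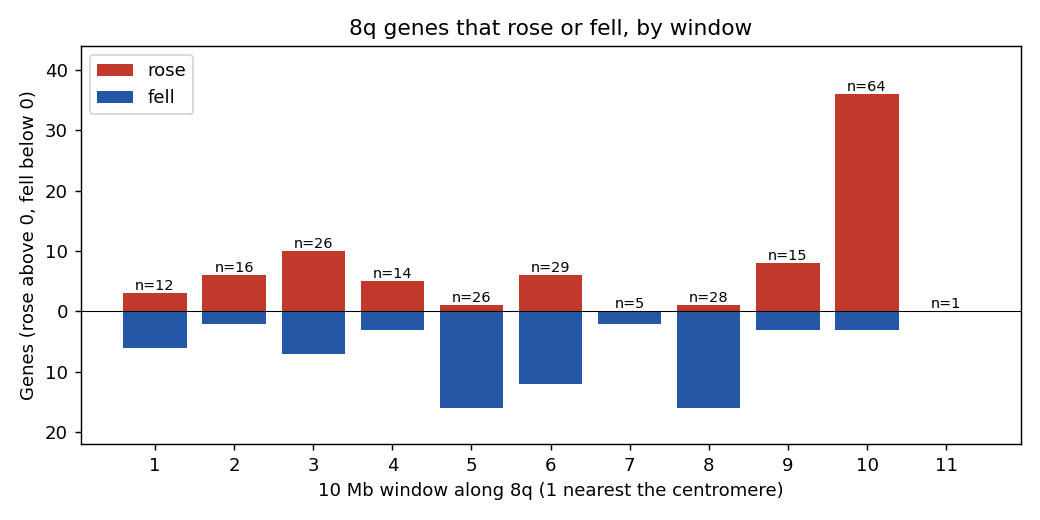
Number of 8q genes that rose (red, above 0) or fell (blue, below 0) in each 10 Mb window from the centromere (window 1, 45 to 55 Mb) to the end of the arm (window 11). The n above each bar is the number of genes measured there, and the tenth window has 36 of 64 genes that rose against 3 that fell.

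In the window nearest the centromere 6 of 12 genes fell and 3 rose. SPIDR, the first gene, did not pass, and CEBPD, a transcription factor of inflammation and differentiation next to it, rose from 74.0 through 87.0, 104 and 110 to 99.8 CPM (slope 0.48 ± 0.16, adjusted p = 0.0256). CEBPD did not pass without the 75:25 or 25:75 library, nor under totals or without 100:0, where its slope was 0.075 and 0.30, and its slope was 0.78 without 0:100. PRKDC (8:47773111-47960178), the catalytic subunit of the DNA-dependent protein kinase that joins broken DNA ends, had 117, 103, 100.1, 78.5 and 67.9 CPM along the series. UBE2V2 (8:48008415-48064708), a partner of ubiquitin-conjugating enzymes in DNA damage tolerance, had 131, 109, 83.3, 61.4 and 37.6 CPM. Both ran in order from the NCI-H1975 end to the HCC827 end, with slopes of -0.78 ± 0.14 (SE, adjusted p = 6.32e-04) and -1.71 ± 0.16 (adjusted p = 6.98e-06). SNAI2, a transcription factor of epithelial to mesenchymal change, went from 63 reads in the 100:0 library to 14 in the 0:100 library, with a slope of -1.96 ± 0.35. TCEA1 (8:53966552-54022448), an elongation factor for RNA polymerase II, rose from 65.9 through 90.1, 106 and 131 to 147 CPM, with a slope of 1.13 ± 0.14 (adjusted p = 3.26e-05). The Src family kinase gene LYN (8:55879835-56014169) lay between 54.5 and 61.7 CPM in all 5 libraries, and its slope of -0.0093 ± 0.16 (adjusted p = 0.968) did not pass.

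The first unbroken run of rising genes went from SDCBP to ASPH, over 3.16 Mb. All 6 of its genes rose, with slopes of 0.86 to 2.09. SDCBP encodes syntenin, a scaffold of exosome formation, and went from 100.4 to 212 CPM between the pure libraries (slope 0.93, or 0.60 without the 100:0 library). RAB2A, a GTPase of traffic between the endoplasmic reticulum and the Golgi, had 120, 157, 193, 212 and 261 CPM (slope 1.06 ± 0.12). CHD7, a chromatin remodeller, had 11.4, 18.4, 30.9, 50.7 and 45.9 CPM, and its highest value was thus in the 25:75 library rather than in pure HCC827. ASPH (8:61500556-61714640), an aspartate beta-hydroxylase of the endoplasmic reticulum, gained most reads. It had 270 CPM in the 100:0 library, then 460, 627 and 747, and 988 CPM in the 0:100 library, a 3.66-fold difference with a slope of 1.76 ± 0.15 (adjusted p = 4.66e-06). CLVS1 overlaps ASPH on the opposite strand and rose as well, but held 1264 reads against 9934. Whether counting used the strand was not given in the sources used here, so reads of overlapping genes may not have been told apart.

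A short falling group followed, made of ARMC1, MTFR1 and PDE7A. ARMC1 had 66.2, 67.6, 45.1, 25.7 and 15.9 CPM. MTFR1, a regulator of mitochondrial shape, had 111, 86.3, 68.1, 56.7 and 33.4 CPM. Their slopes were -2.06 ± 0.27 and -1.57 ± 0.16. PDE7A, a cyclic AMP phosphodiesterase, overlaps MTFR1 on the opposite strand and had a slope of -1.76 ± 0.35. Farther along, TRAM1, a component of the channel that takes proteins into the endoplasmic reticulum, passed narrowly with a slope of -0.37 ± 0.13 (adjusted p = 0.0392), and it did not pass by DESeq2's Wald test or when any library other than 100:0 was left out. XKR9, a gene of the phospholipid scramblase family, fell from 46 reads through 46, 27 and 12 to 3. Its level was 12.1-fold lower in the 0:100 library, with a counting interval of 3.91 to 61.1 (exact 95% interval on the reads of both pure libraries).

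Another rising run lay from RDH10 to JPH1, within 1.03 Mb (8:73294602 to 74321540). All 7 genes of the run rose, with a median slope of 1.82 and the smallest at 1.35, for JPH1, which did not pass without the 0:100 library. ELOC (8:73939169-73972307) encodes elongin C, the adaptor of the VHL and other ubiquitin ligases. Its levels were 238, 382, 491, 630 and 738 CPM, 3.09-fold higher in the 0:100 library, with a slope of 1.58 ± 0.15 (adjusted p = 6.35e-06). STAU2, a double-stranded RNA binding protein, had 33.4, 84.2, 104, 106 and 167 CPM (slope 1.82 ± 0.27). UBE2W, a ubiquitin-conjugating enzyme, went from 22.9 to 105 CPM, TMEM70, an assembly factor of mitochondrial ATP synthase, from 35.2 to 132 CPM, and LY96, the co-receptor of the endotoxin receptor TLR4, from 34.6 to 139 CPM. In UBE2W, TMEM70 and LY96 every mixed library lay between the pure ones. RDH10, a retinol dehydrogenase, was 5.23-fold higher in the 0:100 library, with 41 and 170 reads in the pure libraries. It overlaps the ribosomal protein gene RPL7, which held far more reads (83177 against 650), so its own reads are uncertain.

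The proximal stretch ended with genes that went both ways. TPD52 (slope 0.80 ± 0.12), named for its overexpression in tumours, went from 78.8 to 139 CPM. CHMP4C (slope 0.65 ± 0.14), a subunit of the membrane-cutting ESCRT machinery, went from 67.1 to 103 CPM. It did not pass under scaling by totals, and ZFAND1 overlaps it on the opposite strand with nearly as many reads (1128 against 1359). FABP5, a carrier of fatty acids, fell from 96.5 through 84.2, 72.8 and 50.0 to 41.7 CPM, with a slope of -1.24 ± 0.16 (adjusted p = 5.35e-05). Similar copies of FABP5 exist elsewhere in the genome, and how reads shared with them were divided is not known here.

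**Figure D3:**
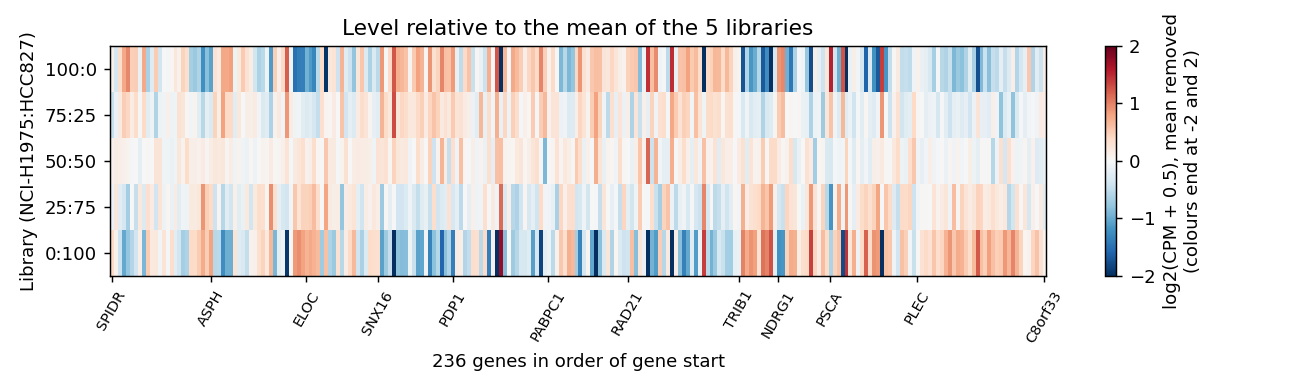
Level of each of the 236 genes in each library, as log2(CPM + 0.5) with the gene's mean over the 5 libraries removed (red higher, blue lower, colours end at -2 and 2), with genes in order of position and every library a row. Contiguous blocks change colour from the 100:0 row to the 0:100 row, as around ELOC (from blue to red), around PDP1 (from red to blue) and right of TRIB1 (from blue to red).

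In the middle stretch the longest run of falling genes was LRRCC1 to PDP1, with 19 genes in a row of negative slope over 8.82 Mb (8:85107215 to 93926068), 14 of which passed. Their median slope was -1.35. RBIS, a factor of ribosome assembly, had 110, 97.7, 86.4, 74.2 and 61.1 CPM (slope -0.83 ± 0.13). NBN (8:89924515-90003228), a subunit of the complex that senses double-strand DNA breaks, had 89.3, 66.7, 65.2, 36.4 and 23.9 CPM. DECR1 (8:90001405-90053633), a reductase needed to oxidise unsaturated fatty acids in mitochondria, had 108, 93.2, 74.1, 56.4 and 32.3 CPM. Slopes were -1.75 ± 0.22 for NBN (adjusted p = 5.19e-05) and -1.59 ± 0.18 for DECR1 (adjusted p = 2.64e-05). These genes overlap on opposite strands, with 993 and 1279 reads. PDP1 (8:93857807-93926068), a phosphatase that switches on pyruvate dehydrogenase, had 182, 144, 127, 80.3 and 38.7 CPM, 4.70-fold lower in the 0:100 library, with a slope of -1.97 ± 0.23 (adjusted p = 2.71e-05). ATP6V0D2, a subunit of the proton pump of acidic organelles, had 30, 40, 19, 10 and 0 reads (slope -2.89 ± 0.75, or -1.88 when 0:100 was left out and -4.39 when 100:0 was). With its 0 set to 3 reads, it was 7.92-fold lower in the 0:100 library, and its counting interval began at 6.06.

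Genes that rose interrupted the middle stretch at few places. They included INTS8, PLEKHF2, TSPYL5, KLF10, AZIN1, ATP6V1C1 and NTAQ1. Of these INTS8, PLEKHF2 and KLF10 did not pass under scaling by totals or without the 100:0 library, and INTS8 and PLEKHF2 did not pass without the 0:100 library either. INTS8 also did not pass by DESeq2's Wald test. KLF10, AZIN1 and ATP6V1C1 lay in a row (8:102648784 to 103073051). AZIN1, which spares ornithine decarboxylase from degradation, had 93.2, 144, 189, 218 and 284 CPM, a 3.05-fold difference (adjusted p = 6.65e-06). ATP6V1C1, another subunit of the organelle proton pump, had 52.6, 75.9, 91.9, 116 and 142 CPM (slope 1.37 ± 0.14). Slopes were negative in the runs on either side, from RIDA to RRM2B (12 genes, median -0.89) and from FZD6 to EMC2 (8 genes, median -1.16).

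TSPYL5 and NTAQ1 stood out from their neighbours. TSPYL5 (8:97273488-97277928) had 0, 17, 27, 29 and 43 reads, with the largest slope of all 236 genes, 3.50 ± 0.66 (adjusted p = 8.97e-04). With its 0 set to 3 reads it was 18.1-fold higher in the 0:100 library, and its counting interval began at 14.1. Next to it MTDH, which encodes metadherin, fell from 235 through 198, 157 and 122 to 82.0 CPM, with a slope of -1.47 ± 0.13. NTAQ1 (8:123416726-123470028), an amidase that acts on N-terminal glutamine, had 16 and 266 reads in the pure libraries. Its levels were 4.81, 35.9, 57.9, 76.0 and 101 CPM, a 21.0-fold difference with a slope of 2.90 ± 0.45 (adjusted p = 2.18e-04). The genes on either side of NTAQ1 fell. ATAD2, a bromodomain ATPase, had a slope of -0.68 ± 0.24, which did not pass by DESeq2's Wald test or without the 100:0, 75:25 or 25:75 library and was -1.07 without 0:100. FBXO32, the substrate receptor of a ubiquitin ligase known from muscle wasting, had 246, 239, 198, 148 and 128 CPM (slope -1.02 ± 0.13).

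The 3 genes with most reads in the middle stretch were PABPC1, YWHAZ and LAPTM4B. PABPC1 (8:100685816-100722809), the main cytoplasmic poly(A)-binding protein, had 2368 to 2378 CPM in the 100:0 and 75:25 libraries and 2098 in the 0:100 library. Its slope of -0.20 ± 0.092 (adjusted p = 0.0934) did not pass, but was -0.25 and passed among genes with at least 10 reads in every library, and was -0.61 and passed under scaling by totals. LAPTM4B, a lysosomal membrane protein, lay between 207 and 240 CPM, with a slope of 0.12 ± 0.12 (adjusted p = 0.461) that did not pass. YWHAZ, the zeta member of the family of adaptors that bind phosphorylated serine, fell from 549 through 502, 436 and 380 to 289 CPM (slope -0.90 ± 0.12, adjusted p = 9.63e-05). PABPC1 and YWHAZ both have near-identical copies in the genome, and their counts are uncertain to that extent. OXR1, an oxidation resistance gene, fell from 41.8 to 15.2 CPM and ENY2, a subunit of the SAGA transcription complex, from 51.4 to 25.4 CPM. They were the 2 of 5 genes measured in the window from 105 Mb that passed.

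Toward the end of the middle stretch, 16 of 28 genes of the window from 115 Mb fell. RAD21 (8:116845934-116874776), the cleavable subunit of the cohesin ring, had 171, 136, 126, 110 and 94.5 CPM, with a slope of -0.82 ± 0.12 (adjusted p = 1.95e-04). HAS2, a hyaluronan synthase, had 32, 24, 21, 8 and 0 reads. With its 0 set to 3 reads it was 8.45-fold lower in the 0:100 library, and its counting interval began at 6.48. FAM83A (8:123178960-123210079), a scaffold protein linked to growth factor signalling, had 269, 207, 166, 125 and 75.5 CPM, 3.56-fold lower, with a slope of -1.72 ± 0.14 (adjusted p = 4.05e-06). RNF139, a ubiquitin ligase of the endoplasmic reticulum, had a slope of -0.73 ± 0.17 and did not pass without the 0:100 library. MAL2, a protein of apical transport in epithelial cells, lay between 132 and 153 CPM and did not pass (slope -0.075 ± 0.13, adjusted p = 0.673).

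The sign changed between TRIB1 and LRATD2, whose starts lie at 125430358 and 126552443. TRIB1, a pseudokinase, had a slope of -0.16 ± 0.21 and did not pass. LRATD2 (8:126552443-126558478) had 35.2, 95.3, 146, 194 and 235 CPM, 6.69-fold higher in the 0:100 library, with a slope of 2.40 ± 0.27 (adjusted p = 2.42e-05). It began a run of 9 genes in a row with positive slopes that reached PHF20L1 over 6.30 Mb, 7 of which passed, with a median of 1.82. ASAP1, a regulator of Arf GTPases and of cell spreading, had 18.3, 31.7, 38.8, 46.4 and 65.3 CPM (slope 1.62 ± 0.20). CYRIB, an inhibitor of Rac-driven actin assembly, went from 16.2 to 69.5 CPM. DNAAF11, needed to assemble dynein arms of cilia, had 5, 32, 46, 47 and 60 reads, a 15.1-fold difference between the pure libraries. HHLA1 had 1 read in pure NCI-H1975 and 13 in pure HCC827, a ratio of 16.4 with a counting interval of 2.46 to 697, and did not pass without the 100:0 library.

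NDRG1 and ST3GAL1 broke this pattern. NDRG1 (8:133237175-133302022), a gene induced by hypoxia and metal stress, had 224, 173, 137, 96.0 and 52.0 CPM, 4.31-fold lower in the 0:100 library, with a slope of -1.95 ± 0.17 (adjusted p = 4.78e-06). ST3GAL1, a sialyltransferase, had 72, 71, 42, 22 and 12 reads and a slope of -2.14 ± 0.32. In CPM both ran in order over all libraries. They lie between PHF20L1, which did not pass, and ZFAT, which rose but did not pass without the 100:0 or 25:75 library or under scaling by totals.

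The end of the arm is dense with genes, and 62 of the 236 had their start between 140 and 145 Mb. DENND3, an activator of Rab GTPases, had 9 and 73 reads in the pure libraries and levels of 2.71, 6.62, 11.8, 19.6 and 27.7 CPM (slope 3.02 ± 0.34, adjusted p = 2.23e-05). The LY6 family of small surface proteins anchored by lipid sits here, and its measured genes went in both directions. LY6D rose, with 13, 87, 128, 126 and 179 reads (slope 2.97 ± 0.37, adjusted p = 4.62e-05), a 17.4-fold difference in CPM. LY6K had a slope of 0.76 ± 0.14, and LY6E, the most abundant by reads, one of 0.35 ± 0.12 (adjusted p = 0.0234). LY6E did not pass without a filter on low counts or without the 75:25, 50:50 or 0:100 library, and its slope was -0.054 when libraries were scaled by totals. PSCA had 17, 10, 4, 1 and 2 reads and a slope of -3.69 ± 0.91 (adjusted p = 0.00542), which did not pass without the 100:0 library. The level of PSCA was 6.73-fold lower in the 0:100 library (counting interval 1.60 to 60.1). LYNX1 fell from 33 to 2 reads, 13.1-fold lower with an interval of 3.34 to 112. Thus LY6D, LY6K and LY6E rose and PSCA and LYNX1 fell between 142670308, the start of PSCA, and 143023832, the end of LY6E. PSCA is overlapped by JRK and LY6K by the non-coding LNCOC1, each on the opposite strand and with more reads (212 against 34 and 1818 against 1505).

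Beyond these the longest run of the arm held 27 genes in a row with positive slopes, from PARP10 to RECQL4 within 0.541 Mb (8:143977153 to 144517845), of which 19 passed. Their slopes ran from 0.35 to 2.26 with a median of 1.07. HSF1 (8:144291591-144314720), the transcription factor of the heat shock response, had 63.5, 93.9, 109, 154 and 183 CPM, 2.89-fold higher in the 0:100 library, with a slope of 1.49 ± 0.14 (adjusted p = 6.23e-06). Its neighbour DGAT1, the enzyme of the last step of triglyceride synthesis, went from 14.1 to 31.1 CPM. DGAT1 overlaps HSF1 on the opposite strand with fewer reads (365 against 1939), so its own reads are uncertain. SHARPIN, a subunit of the linear ubiquitin chain assembly complex, had 61.0, 87.0, 90.4, 100.3 and 122 CPM (slope 0.86 ± 0.15), and overlaps MAF1, a repressor of RNA polymerase III, on the opposite strand. GRINA, a membrane protein of stress signalling, had a slope of 0.54 ± 0.13 that did not pass without the 0:100 library or under scaling by totals. GPAA1, which attaches proteins to their lipid anchor, missed the threshold (slope 0.46 ± 0.18, adjusted p = 0.0533) and passed under DESeq2 size factors and without the 100:0 library.

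Ahead of that run but not adjoining it, NAPRT (8:143574785-143578649) went against the genes kept on either side of it, MROH6 and TIGD5, which rose. TIGD5 overlaps EEF1D, which was left out by name, on the opposite strand. EEF1D held far more reads (10319 against 226), so the reads of TIGD5 itself are uncertain. NAPRT makes NAD from nicotinic acid, and had 95, 84, 46, 30 and 4 reads, or 28.6, 19.9, 12.1, 10.7 and 1.52 CPM. It was 18.8-fold lower in the 0:100 library, with a counting interval of 7.11 to 70.5 and a slope of -2.78 ± 0.43 (adjusted p = 2.25e-04). An unnamed transcript on the opposite strand overlaps it, with 178 reads against 259. MROH6, the gene just before it, rose with a slope of 2.08 (1.43 without the 100:0 library). GSDMD, the pore-forming protein of pyroptosis, lies before MROH6 and rose as well, with 34.6, 67.6, 87.5, 112 and 151 CPM (4.37-fold, adjusted p = 7.15e-06). PLEC (8:143915153-143976734), which encodes the giant cytoskeletal linker plectin, lay between 178 and 199 CPM, with a slope of -0.093 ± 0.12 (adjusted p = 0.544). The last gene, C8orf33, did not pass (slope -0.23 ± 0.20, adjusted p = 0.365).

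**Figure D4:**
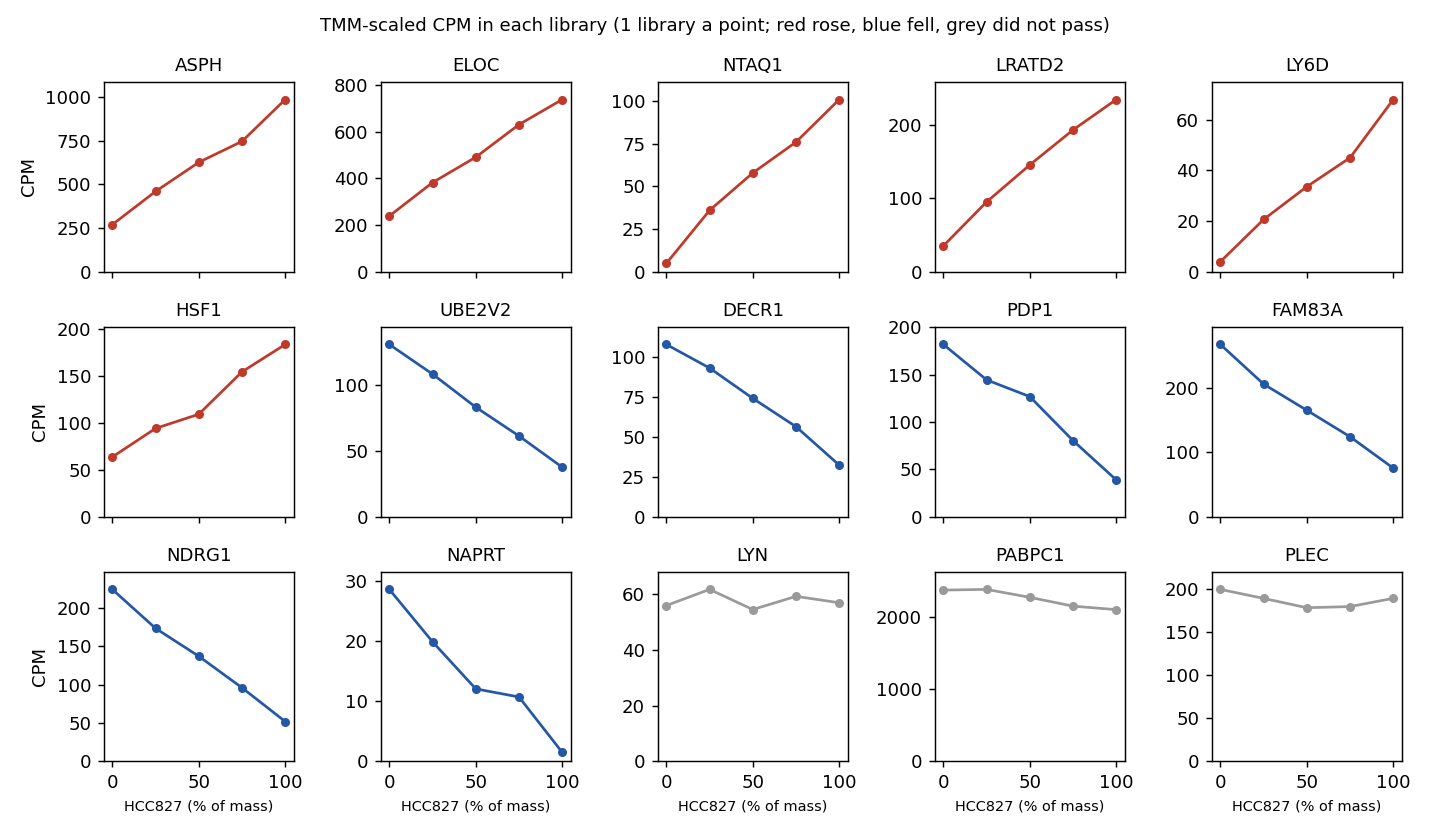
Level (CPM after TMM scaling, each axis from 0) of 15 genes against the HCC827 share of RNA mass, with 1 library a point and no replicates. The first 6 rise at every step, the next 6 fall at every step, and LYN, PABPC1 and PLEC stay within a narrow band.

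Grouped by role, the genes did not all follow one direction. The counts below stand beside 23.5% of all genes that rose, 22.3% that fell and 45.7% in either direction. Of 12 genes of DNA repair and chromosome upkeep, 6 fell (PRKDC, UBE2V2, NBN, RAD21, DSCC1 and ATAD2) and 0 rose, with a median slope of -0.43. DSCC1, of a complex that acts in cohesion of sister chromatids, had 37, 22, 35, 11 and 6 reads and did not pass without the 100:0, 25:75 or 0:100 library. The 6 that did not pass included TONSL at 0.96 ± 0.46 and RECQL4 at 0.35 ± 0.28, both in the distal stretch. Of 18 genes of membrane traffic and organelles, 9 rose and 3 fell, with a median of 0.60. Those that rose included RAB2A, ATP6V1C1 and VPS28, a subunit of the endosomal sorting machinery with a slope of 1.49 ± 0.21. Of 27 genes of transcription and RNA processing, 11 rose and 8 fell. Among those that rose, CPSF1 and EXOSC4, of polyadenylation and the exosome, lie at the end of the arm, whereas MTERF3, POP1 and POLR2K, which fell, lie in the middle stretch. MTERF3 did not pass without the 0:100 library, and the slope of POLR2K was then -0.95 rather than -1.44. Of 15 genes of ubiquitin and protein turnover, 6 rose and 6 fell, all 6 that fell lying in the middle stretch.

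Of 25 listed genes of metabolism and transport, 18 were among the 236, and 8 fell and 4 rose, with a median of -0.60. Besides FABP5, DECR1, PDP1, OXR1, HAS2 and NAPRT, those that fell were BPNT2 and GGH, whereas GFUS, DGAT1, SLC52A2 and SLC39A4, all at the end of the arm, rose. Without the 0:100 library BPNT2, GGH, SLC52A2 and SLC39A4 did not pass, and GGH did not pass without 75:25 or 25:75 or by DESeq2's Wald test either. Under scaling by totals SLC52A2 and SLC39A4 did not pass. Of 21 listed signalling genes 14 were measured, of which 2 rose (ASAP1 and PTK2), 3 fell (YWHAZ, FZD6 and NDRG1) and 9 did not pass. PTK2, which encodes focal adhesion kinase, went from 21.7 to 48.6 CPM, with a slope of 1.02 ± 0.24, which was 0.65 and did not pass without the 100:0 library. FZD6, a Wnt receptor, did not pass by DESeq2's Wald test or without the 25:75 or the 0:100 library. CCN3, a secreted matrix protein, had 23, 8, 21, 6 and 0 reads and did not pass. Of 25 listed genes of adhesion, cytoskeleton and cell surface 18 were measured, and 6 rose and 5 fell. CTHRC1, a secreted protein of matrix remodelling, was among the latter, with 58.6, 42.3, 40.3, 25.0 and 12.1 CPM (slope -1.90 ± 0.27). No set of genes was tested as such.

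The pure libraries alone were compared without a test. At least 2-fold apart were 124 of the 236 genes (52.5%), against 34.6% of all genes tested. The level in the 0:100 library was higher for 63 and lower for 61, where the shares over all genes were 16.2% and 18.4%. With a library under 3 reads set to 3, the median log2 ratio was 0.079. Of the 124, 83 (66.9%) had values in order over all 5 libraries, against 53.9% of all genes that far apart, and 105 (84.7%) had all 3 mixed libraries between the pure ones, against 78.5%. In the middle stretch 42 genes were at least 2-fold lower and 6 higher, and in the distal stretch 38 were higher and 5 lower.

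The tables count transcripts, so the balance of isoforms within 8q genes could be tested as well. Of 142 of the genes with at least 2 measured transcripts, 0 changed their isoform usage at an adjusted p under 0.05 (edgeR diffSpliceDGE with Simes p-values), against 0.416% of 7455 genes over the genome. By the gene-level F test 0 passed as well. At an unadjusted p under 0.05 there were 3, PABPC1, ASPH and SCRIB, where the share over all genes was 3.94%. In ASPH, the long transcript ASPH-208 had 1.12% of the gene's reads in the 100:0 library, then 3.97%, 5.39% and 4.93%, and 6.36% in the 0:100 library, while ASPH-203 went from 13.6% to 7.80% (adjusted p of the gene = 0.223). In PABPC1 the short transcript PABPC1-214 had 3.49%, 3.84%, 2.80%, 1.50% and 2.69% of reads (adjusted p of the gene = 0.134). How reads that match several transcripts were divided is not given in the sources used here.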

How the data were processed

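Long-read cDNA of 5 libraries was analysed, 1 per mixing ratio. Each deposited table gives expected counts, the authors' estimated count of reads per transcript, unscaled; minimap2 2.24, Salmon 1.9.0 and GRCh38 are listed in the submitters' processing notes, and the annotation release is not given in the sources used here. Repeated identifiers (161) were summed and 2 values in the 100:0 table were rounded. Of the human transcripts, 224076 matched GENCODE v44 and 3675 did not. Gene sums with at least 10 reads in at least 2 libraries were scaled by TMM and tested with edgeR 4.0.16 (R 4.3.3, glmQLFit and glmQLFTest) for a slope on the HCC827 mass fraction, with Benjamini-Hochberg adjustment over all genes at 0.05. Each SE came from the slope and its F value. A mixture is curved on the log scale, so slopes understate large ratios. PCR copies count as reads, and intervals (exact, 95%) and the floor of 3 reads cover counting error only.

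In a simulation of 13492 genes, the slope test recovered 45 of 100 genes changed 2-fold and 82 of 100 changed 4-fold, with 10 false calls. Only 200 genes were changed there, whereas 45.7% of genes passed in the data, so these rates need not hold for the data. Genes were named by rule: the 2 with most reads in each 10 Mb window, the 6 with the largest slope in each direction, and up to 4 with most reads of each role list. Others were named after their values were seen. The genes and lists were chosen with earlier results of these data known. Of the genes, 96 overlap another gene with at least 10 reads, 86 of them one on the opposite strand. DESeq2 1.42.0 gave size factors and a Wald test as alternatives, beside library totals, other read filters and fits leaving out each library. Sequences are not shown.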

Additional observations from a re-analysis of the deposited data

How the results depend on the processing

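The number of 8q genes that passed (146) stayed within 1.5 times under all settings of scaling, tool, filter and left-out library, from 110 to 148, and none of the genes that passed both there and under TMM changed sign. Fits that left out 1 library gave from 110 to 145 genes that passed, from 60 to 75 that rose and from 50 to 70 that fell, with the lowest counts without the 0:100 library. In those fits from 30.4% to 43.6% of all genes passed. Over every setting that share lay between 23.8%, without a filter on low counts, and 51.0%, under library totals. Of genes that overlap no other gene, 81 of 140 passed (57.9%), against 61.9% of all 236. Scaling by library totals moved the median slope to -0.39 and the median log2 ratio of the pure libraries to -0.33. It also changed the number that rose in the middle stretch to 5 and the number that fell in the distal stretch to 8. With at least 10 reads in every library, 2 genes fell in the distal stretch. Leaving out 1 library gave from 5 to 8 genes that rose in the middle stretch and from 0 to 1 for isoform usage, the 1 without the 0:100 library. The stretches and the genes without overlap were chosen after the data were seen.

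With windows of 5 Mb, the median slope at 65 to 70 Mb was -0.26 and at 70 to 75 Mb 1.35, where the window of both had 0.15. Slopes that changed sign were small or belonged to scaling. LYN, at -0.0093 under TMM and -0.083 without the 100:0 library, had 0.0043 with DESeq2 size factors and 0.0061 by the Wald test, and also 0.053 in the fit lacking the 75:25 library and 0.0082 in the one lacking 0:100. MAL2 had 0.075 without the 0:100 library and PLEC 0.021 without the 100:0 library, against -0.23 without the 0:100 library. Under library totals LAPTM4B had -0.29 and LY6E -0.054. No paired analysis was possible because each ratio had 1 library. With 34 to 38134 reads per gene over the 5 libraries, and 37 of the 236 genes under 10 reads in a pure library, small differences of the scarce genes were not detectable at this depth.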

Other observations

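Non-coding genes of 8q were not among the genes above. Of 44 that were tested, 15 rose and 8 fell (edgeR quasi-likelihood slope, adjusted p under 0.05), where the shares over 1529 non-coding genes were 18.2% and 17.7%. SNHG6, the host gene of a small nucleolar RNA, had 1512, 2338, 2391, 2029 and 2104 reads from the 100:0 to the 0:100 library, with a slope of 0.80. Around the start of the distal stretch, CASC8 had 12, 87, 102, 137 and 169 reads (slope 3.04, adjusted p = 4.20e-05) and PCAT1 had 2, 13, 24, 31 and 35 (slope 3.33). PVT1, close by at 8:127794526, went the other way, with 162, 164, 129, 91 and 65 reads and a slope of -0.88 (adjusted p = 0.00244). CASC9, in the proximal stretch, had 0, 74, 130, 107 and 134 reads. MAILR beside AZIN1 had 7, 25, 55, 53 and 74 reads and rose, as AZIN1 did. FAM83A-AS1 had a slope of -0.0036 and did not pass, whereas FAM83A fell. OTUD6B-AS1 in the middle stretch had 194, 180, 112, 91 and 33 reads and fell, whereas OTUD6B did not pass. Those that overlap a coding gene, as MAILR does AZIN1, can share its reads where counting does not use the strand.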
